A study of Mus musculus with 6 samples.

Results

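The genes of sterol and fatty acid synthesis were examined in Lewis lung carcinoma (LLC) cells that had grown under the skin of mice with or without bone marrow-derived mesenchymal stem cells (BMSCs). The set holds 36 listed genes, found by their symbols, of which 35 were among the 18182 genes in the files, and Tm7sf2 was not analysed here. LLC is a murine lung carcinoma line, here carrying red fluorescent protein (LLC-RFP), injected subcutaneously into wild-type C57BL/6 mice either alone (LLC alone, 3 libraries) or together with BMSCs (LLC with BMSCs, 3 libraries). In both groups the fluorescent cells were sorted from the primary cancer sites by flow cytometry before RNA sequencing. The study's methods name female mice for its allografts, in a passage on LLC-luciferase cells, and do not give age or sex again for the sequenced tumours. No source used here says whether the libraries of a group came from separate animals, so that p-values measure only the spread between these libraries. Estimated counts on genes summed to 33476347 to 46189113 per library, and levels are given as FPKM, the fragments counted per unit of transcript length and library total. LLC alone replicate 3 stood apart from the other libraries by transcript length. Its median deviation from the mean over the libraries (log2 scale) was 0.31 in the fifth of tested genes of least length and -0.37 in the fifth of greatest length. In the genes of least length, LLC with BMSCs replicates 1 to 3 were at -0.19, -0.09 and -0.11. LLC alone replicates 1 and 2 were at 0.06 and 0.04 there. In those of greatest length the values were 0.18, 0.10 and 0.13, against -0.02 and -0.003. The length trend thus also separated the groups, and leaving out LLC alone replicate 3 does not remove it from the comparison. Values without LLC alone replicate 3 are therefore given for some genes. So are values after each library's dependence on transcript length and GC content was taken out (length and GC removed). Where neither is given, the values can still differ from the main test, as for Mvk (0.48, and 0.62 with length and GC removed).

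Animal cells build cholesterol from acetyl-CoA in a first stage that makes mevalonate and then isoprenoids, and in a second stage that closes squalene into lanosterol and trims lanosterol to cholesterol. Fatty acids start from the same acetyl-CoA, which ATP citrate lyase cuts from citrate, and are then elongated, desaturated and activated with coenzyme A. When membrane sterol is low, Scap carries the membrane-bound factors Srebf1 and Srebf2 to the Golgi for cleavage, their released parts enter the nucleus and switch on genes of both pathways, and Insig proteins hold Scap back when sterol is plentiful. Excess sterol acts through oxysterols and the LXR receptors on export genes such as Abca1 and Abcg1.

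Promoters of 28 of the 36 listed genes were in the RefSeq table of GRCm38.p6, which gives windows of 300 bases, most of them upstream of a transcription start, in 1 or more windows per gene. Those of Fdps, Fdft1, Sqle, Stard4, Abcg1, Fads1, Scd1 and Scd2 were not in it. The 4 windows printed here are from both directions of change: Hmgcs1 (chr13:119690101-119690400, plus strand) and Insig1 (chr5:28071162-28071461, plus strand) were higher in LLC with BMSCs, whereas Cyp51 (chr5:4104648-4104947, minus strand) and Msmo1 (chr8:64733529-64733828, minus strand) were lower. Capitals mark 3 motifs searched on both strands, which are a sterol regulatory element written as TCACNCCAC, the CCAAT box (ATTGG when read from the other strand) and the E-box CACGTG, and no match overlaps another in these windows.
Hmgcs1: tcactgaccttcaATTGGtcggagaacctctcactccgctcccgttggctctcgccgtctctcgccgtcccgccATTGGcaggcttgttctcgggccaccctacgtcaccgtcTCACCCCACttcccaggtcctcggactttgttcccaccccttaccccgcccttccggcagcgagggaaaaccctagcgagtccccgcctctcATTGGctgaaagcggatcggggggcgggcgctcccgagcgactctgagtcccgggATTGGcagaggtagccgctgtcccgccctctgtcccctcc
Insig1: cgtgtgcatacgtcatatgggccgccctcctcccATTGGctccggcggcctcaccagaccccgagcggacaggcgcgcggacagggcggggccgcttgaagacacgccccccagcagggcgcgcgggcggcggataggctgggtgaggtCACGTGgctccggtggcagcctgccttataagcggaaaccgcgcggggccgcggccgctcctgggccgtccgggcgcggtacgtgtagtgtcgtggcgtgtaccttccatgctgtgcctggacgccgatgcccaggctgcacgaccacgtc
Cyp51: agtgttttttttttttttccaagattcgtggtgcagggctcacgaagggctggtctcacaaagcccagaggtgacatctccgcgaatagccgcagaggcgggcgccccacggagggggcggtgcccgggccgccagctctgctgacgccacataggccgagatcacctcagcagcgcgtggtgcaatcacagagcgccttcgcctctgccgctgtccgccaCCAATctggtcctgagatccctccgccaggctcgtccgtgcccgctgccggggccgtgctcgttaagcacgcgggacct
Msmo1: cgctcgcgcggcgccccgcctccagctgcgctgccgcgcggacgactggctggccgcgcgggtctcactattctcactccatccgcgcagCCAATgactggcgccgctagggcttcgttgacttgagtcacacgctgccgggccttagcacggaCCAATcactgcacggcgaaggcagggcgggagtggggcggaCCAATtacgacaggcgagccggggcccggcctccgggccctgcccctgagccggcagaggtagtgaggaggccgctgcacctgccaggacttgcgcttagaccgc

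The sterol regulatory element was found in 1 of the 28 genes, in Hmgcs1, as TCACCCCAC starting 137 bases before the start, and in 1.24% of the 32851 windows of the table. CCAAT boxes stood in the windows of 22 of the 28 genes (78.6%), in 37.4% of all windows and in 43.6% of the 10204 tested genes with a window. They were present in 13 of the 19 matched genes that were higher and in 5 of the 5 that were lower, and Hmgcs1 with 4 boxes and Msmo1 with 3 moved in opposite directions. The E-box stood in 7 of the 28 genes, namely Abca1, Dhcr7, Elovl5, Hsd17b7, Insig1, Sc5d and Scap, in 7.15% of all windows and in 11.7% of the tested genes with a window. All 7 were among the 19 matched genes that were higher, and none of the 5 matched lower genes held an E-box. With so few lower genes, nothing is read from that absence. Abca1, 1 of the 7, passed the filter on low counts only through LLC with BMSCs. The GC box GGGCGG, searched but not marked, stood in 23 of the 28 genes (15 of 19 higher, 5 of 5 lower). It stood in 67.9% of the tested genes with a window. These are matches of letters in 1 or more short windows per gene, and binding was not measured.

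Of the 35 genes, all of which passed the filter on low counts, 25 (71.4%) were higher and 6 (17.1%) lower in LLC with BMSCs at an adjusted p under 0.05 in edgeR's quasi-likelihood test, and 4 were not called. Abca1, 1 of the 25, passed that filter only through LLC with BMSCs, where it was high. Over the 13353 genes tested, 31.5% were called higher and 31.3% lower. The tallies by role below are to be read beside these shares, and no role was tested as a set. The 35 genes were chosen with earlier results of these data known, so the distance between these shares is not a test of the set. The median log2 fold change of the 35 was 0.36, and that of all tested genes was 0.01. Most of the changes were small, since 3 genes (Abca1, Abcg1 and Scd2) were higher with a log2 fold change of at least 1, and none of the 6 lower genes reached -1. These 3 are 8.57% of the 35, near the 8.65% of all tested genes that were higher by that much. The 3 libraries of one group lay wholly above those of the other in FPKM for 25 genes that were higher, where 37.0% of all tested genes did so, and for 6 that were lower, where 33.7% did. Summed over the 35 genes, the level was 523 to 562 FPKM in LLC alone and 726 to 733 FPKM in LLC with BMSCs. Scd2 alone averaged 51.1 FPKM and 122 FPKM of these sums.

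**Figure D1:**
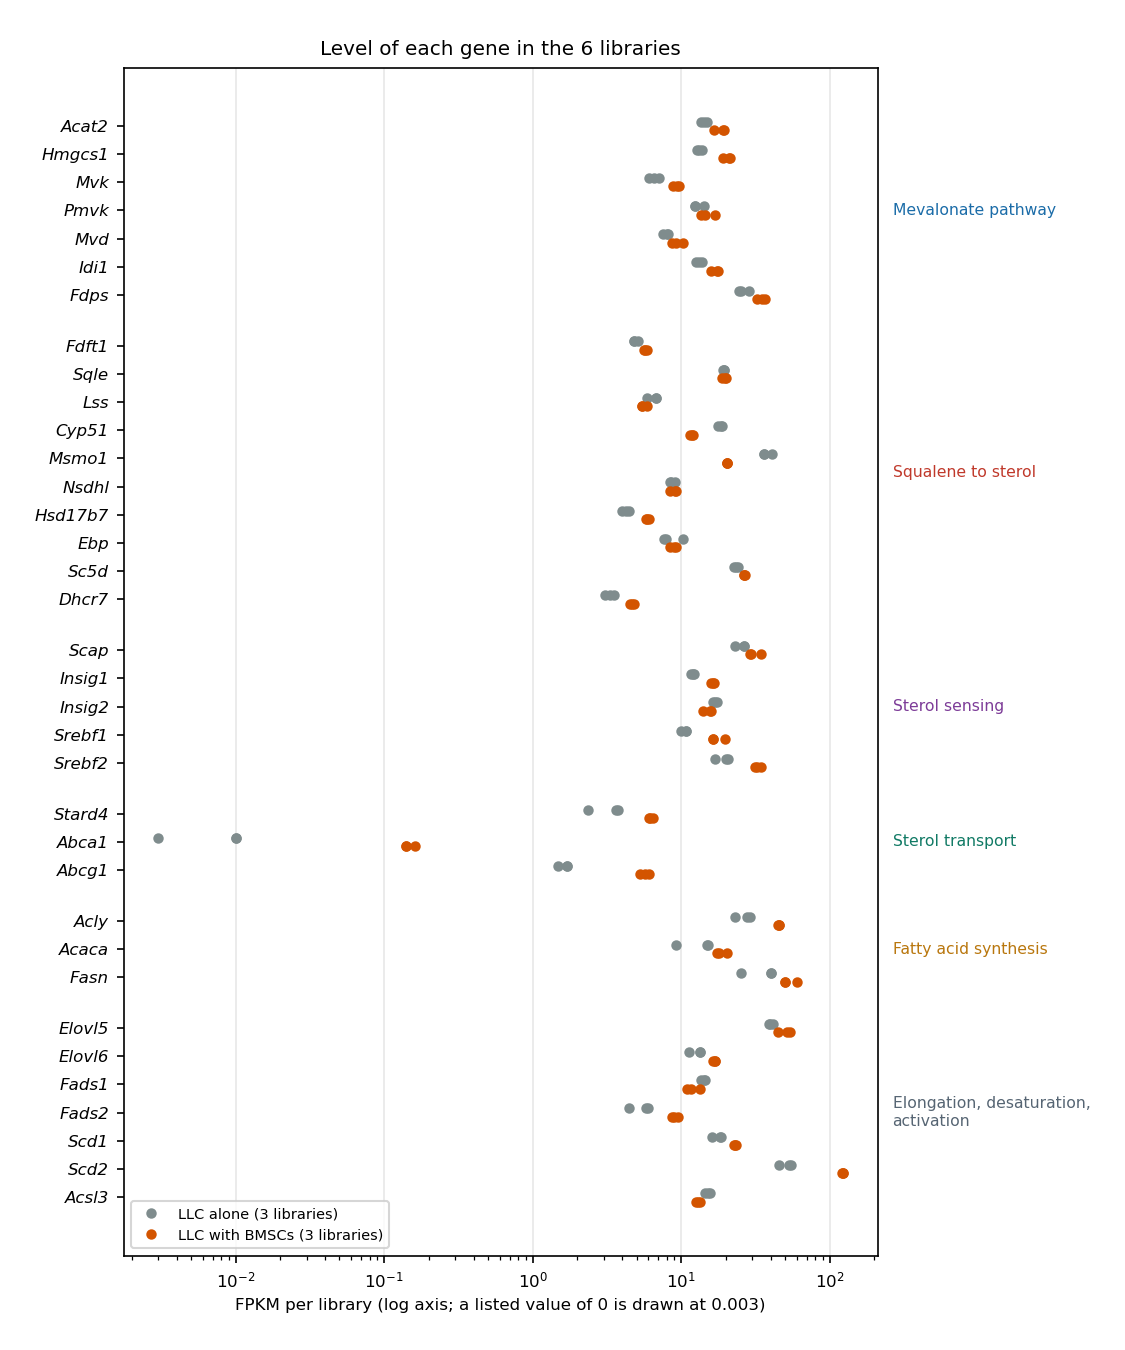
FPKM of each gene (log axis) in the 3 libraries of LLC alone (grey) and the 3 of LLC with BMSCs (orange), with genes grouped by role from top to bottom. Most levels lie between 3 and 60 FPKM, Scd2 stands highest at 120 to 123 FPKM in LLC with BMSCs, and the Abca1 libraries with a listed value of 0 are drawn at 0.003.

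Of the 7 early enzymes that lead to farnesyl diphosphate, 6 were higher in LLC with BMSCs and none was lower. Their median log2 fold change was 0.34. Hmgcs1 (NCBI gene 208715), which joins acetyl-CoA to acetoacetyl-CoA, measured 13.73, 13.21 and 12.81 FPKM in LLC alone and 19.13, 21.12 and 21.36 FPKM in LLC with BMSCs. It had the largest change of the 7, at a log2 fold change of 0.61 (SE 0.064, adjusted p = 1.23e-04 by edgeR), and kept its call in each of 18 other ways of processing. Mvk, the kinase that phosphorylates mevalonate, had 6.03, 6.54 and 7.12 FPKM in LLC alone against 9.69, 9.36 and 8.80 FPKM. The log2 fold change was 0.48 (SE 0.086, edgeR adjusted p = 1.71e-03). Idi1, the isomerase of isopentenyl diphosphate, had 13.71, 12.61 and 13.17 FPKM without BMSCs and 15.82, 17.50 and 17.57 FPKM with them (log2 fold change 0.34, adjusted p = 2.27e-03 by edgeR). The groups did not overlap for any of these 3 genes.

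Fdps, which makes farnesyl diphosphate and had the highest level of the 7, stood at 25.08, 24.50 and 28.69 FPKM in LLC alone and at 32.48, 34.88 and 36.56 FPKM in LLC with BMSCs. Its log2 fold change was 0.38 (SE 0.080, edgeR adjusted p = 4.02e-03) and 0.62 with length and GC removed. Acat2, the cytosolic thiolase that supplies acetoacetyl-CoA, had 13.56, 14.22 and 14.84 FPKM in LLC alone and 16.64, 19.15 and 19.53 FPKM with BMSCs (log2 fold change 0.32, adjusted p = 5.54e-03 by edgeR). Mvd, the decarboxylase of the route, was close to the threshold, with 7.53, 7.99 and 8.11 FPKM against 9.17, 10.27 and 8.64 FPKM and a log2 fold change of 0.23 (edgeR adjusted p = 0.0438) that was 0.36 with length and GC removed. That call was lost in 9 of 18 alternatives, among them each fit without LLC alone replicate 1 or 2 or without LLC with BMSCs replicate 1 or 2, where the adjusted p reached 0.169. Pmvk, the second kinase, overlapped between the groups, with 12.45 to 14.13 FPKM in LLC alone and 13.68 to 17.00 FPKM in LLC with BMSCs, and was not called (log2 fold change 0.19, SE 0.10, adjusted p = 0.134 by edgeR). With length and GC removed, Pmvk was called at a log2 fold change of 0.44 (edgeR adjusted p = 8.48e-04), and without LLC alone replicate 3 at 0.27.

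From squalene onward the enzymes were split, 4 higher, 3 lower and 3 not called of the 10 tested. Over all tested genes 31.5% were called higher and 31.3% lower, so nothing is read from this split. Their median log2 fold change was 0.02, and it was 0.12 both without LLC alone replicate 3 and with length and GC removed. The lower genes lay close together in the route. Msmo1 (NCBI gene 66234), the oxidase that removes the C4 methyl groups, measured 35.85, 36.15 and 40.98 FPKM in LLC alone and 20.19, 20.27 and 20.18 FPKM in LLC with BMSCs. Its log2 fold change of -0.92 (SE 0.070, edgeR adjusted p = 2.45e-05) was the lowest of the 35 genes, with groups far apart and 3 nearly equal libraries in LLC with BMSCs. Cyp51 (NCBI gene 13121), the lanosterol 14-alpha-demethylase that acts shortly before it, had 18.66, 18.78 and 17.71 FPKM against 12.01, 11.87 and 11.44 FPKM. This gave a log2 fold change of -0.66 (SE 0.057, adjusted p = 4.43e-05 by edgeR). Both were called lower in all 18 alternatives, the only 2 of the 6 lower genes to be so. With length and GC removed, Msmo1 and Cyp51 were each at -0.78.

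Lss, the cyclase that forms lanosterol, had 6.71, 6.80 and 5.90 FPKM in LLC alone and 5.89, 5.44 and 5.47 FPKM with BMSCs. The groups were separated by 0.01 FPKM, and the log2 fold change of -0.23 (SE 0.072, edgeR adjusted p = 0.0248) was not called in 8 of 18 alternatives, including the fits without LLC alone replicate 1 or 2 and without LLC with BMSCs replicate 2 or 3, where the adjusted p reached 0.0909. With length and GC removed it was -0.45. Sqle, the squalene epoxidase and a rate-limiting step of the second stage, showed 19.19 to 19.29 FPKM in LLC alone and 18.88 to 19.98 FPKM in LLC with BMSCs. edgeR gave a log2 fold change of 0.0027 (SE 0.053, adjusted p = 0.968). Nsdhl, a dehydrogenase of C4 demethylation, likewise overlapped at 8.39 to 9.07 FPKM and 8.46 to 9.16 FPKM (log2 fold change 0.018, SE 0.068, adjusted p = 0.827 by edgeR). Ebp, the sterol isomerase, had 7.66, 7.87 and 10.31 FPKM in LLC alone and 8.35, 8.99 and 9.27 FPKM with BMSCs, a spread set by LLC alone replicate 3, and was not called (log2 fold change 0.019, SE 0.12, edgeR adjusted p = 0.903). Without that library its log2 fold change was 0.18 and it was called, at an adjusted p of 0.0480 by edgeR.

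Hsd17b7, the ketosteroid reductase that completes C4 demethylation, had 4.26, 4.46 and 4.0 FPKM in LLC alone against 5.88, 5.75 and 6.02 FPKM. The fitted log2 fold change was 0.45 (SE 0.062, edgeR adjusted p = 4.56e-04), and 0.32 with length and GC removed. Dhcr7, which reduces 7-dehydrocholesterol to cholesterol, had 3.51, 3.30 and 3.06 FPKM against 4.66, 4.84 and 4.50 FPKM (log2 fold change 0.49, SE 0.082, adjusted p = 1.26e-03 by edgeR). Thus Hsd17b7 and Dhcr7 were called higher, whereas Nsdhl and Ebp, which act in the same stretch of the route, were not called. Sc5d, the desaturase before Dhcr7, was higher by a log2 fold change of 0.17 (SE 0.053, edgeR adjusted p = 0.0242), from 22.69 to 24.05 FPKM to 26.54 to 26.94 FPKM. Its call was lost in 6 of 18 alternatives, among them the fits without LLC alone replicate 1 and without LLC with BMSCs replicate 2 or 3, where the adjusted p reached 0.102. Fdft1, the squalene synthase, had 4.78, 4.81 and 5.14 FPKM against 5.90, 5.71 and 5.62 FPKM. The log2 fold change was 0.20 (SE 0.063, adjusted p = 0.0226 by edgeR). Its call was lost in 10 of 18 alternatives, including the fit with length and GC removed (0.13, adjusted p = 0.0858 by edgeR) and each fit without a library other than LLC alone replicate 3, and its exons overlap those of Ctsb by 774 bases on the opposite strand. Ctsb, the protease cathepsin B, averaged 752 CPM (counts scaled to library size) in LLC alone and 453 CPM in LLC with BMSCs, and no source used here says whether reads were counted by strand, so reads of the 2 genes cannot be told apart in that stretch. In the same GENCODE annotation of GRCm38, Cyp51 overlaps Akap9 on the opposite strand by 166 bases, where Akap9 averaged 51.3 CPM and 66.0 CPM, and Srebf1 overlaps Rai1 by 109 bases. Acsl3 overlaps Utp14b on its own strand by 140 bases. On the opposite strand, Hmgcs1 overlaps Gm48342 by 458 bases, Scap overlaps 5830462I19Rik by 327 bases and Idi1 overlaps Gm48574 by 323 bases. Fdps overlaps Gm43738 on its own strand by 197 bases. Levels of these overlapping genes are not given here, and shorter overlaps of other members are not all named.

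**Figure D2:**
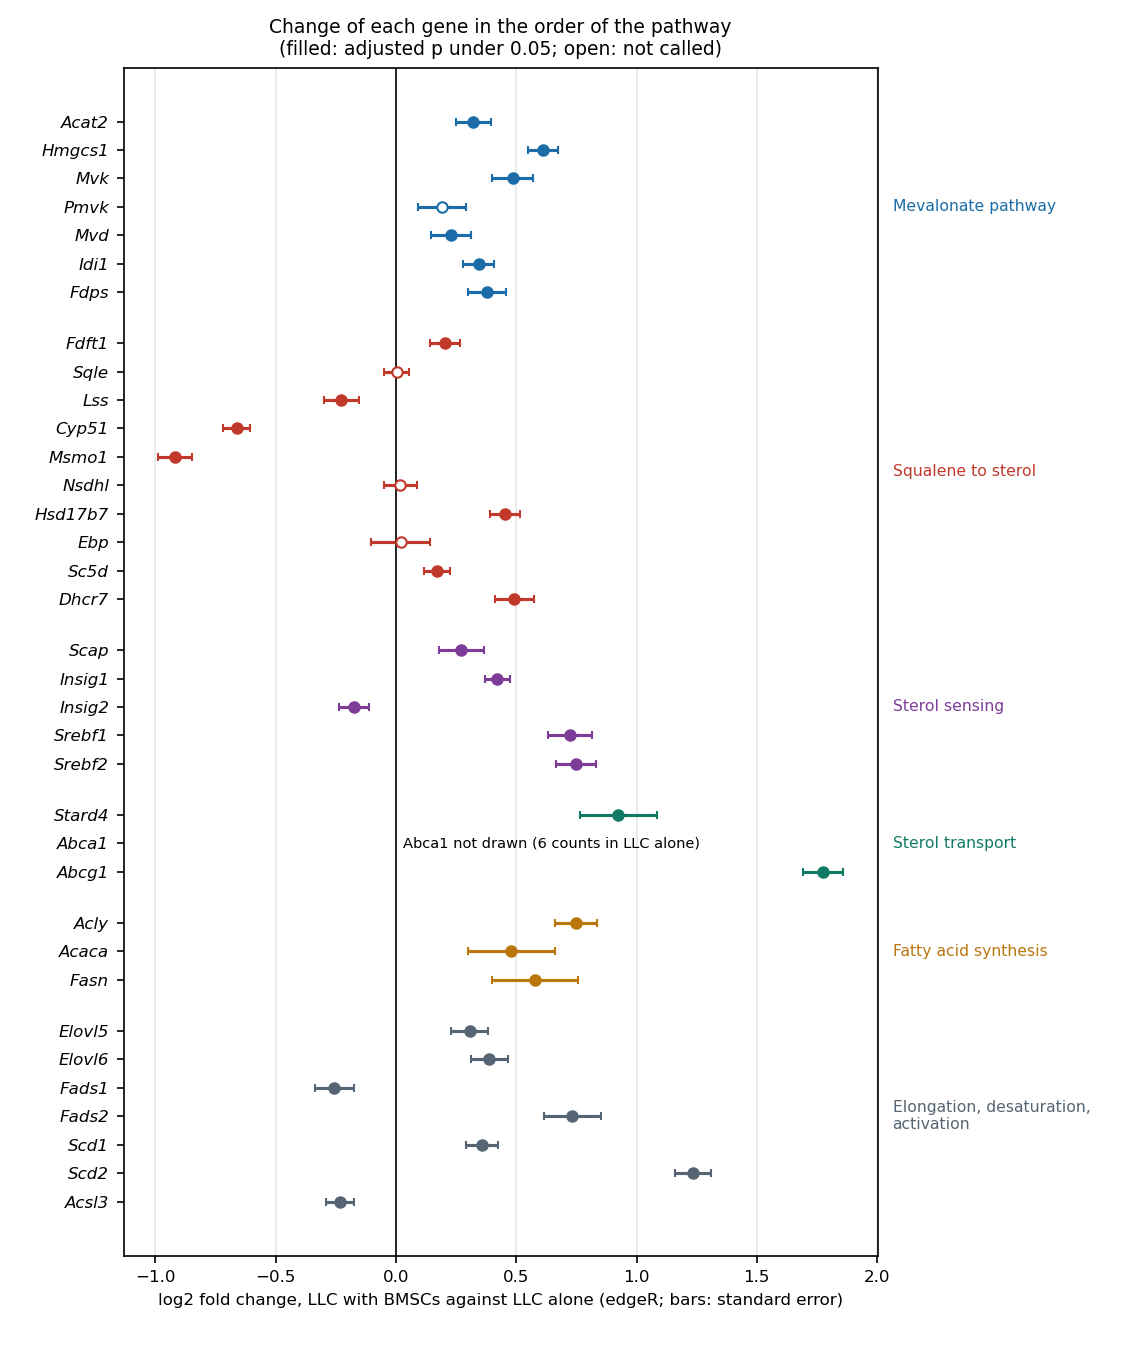
log2 fold change of each gene between LLC with BMSCs and LLC alone, ordered along the pathways from top to bottom, with bars for the standard error of the edgeR fit. Filled points passed an adjusted p under 0.05 and open points did not. Cyp51 at -0.66 and Msmo1 at -0.92 stand left of 0 below Lss at -0.23, between Sqle and Nsdhl, which were not called. Abca1 is left out because its 3 LLC alone libraries held 6 counts in all.

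Hmgcs1 and Cyp51, a pair chosen after their values were seen, differed in their ratio in FPKM, which was 0.736, 0.703 and 0.723 in LLC alone and 1.59, 1.78 and 1.87 in LLC with BMSCs. The 7 early genes summed to 91.4 to 98.9 FPKM in LLC alone and to 116.6 to 129.3 FPKM with BMSCs. For the 10 genes from squalene onward the sums were 131.9 to 138.9 FPKM and 117.5 to 118.2 FPKM. The second sum was lower with BMSCs through Msmo1 and Cyp51, since the other 8 genes summed to 77.4 to 80.2 FPKM in LLC alone and 85.3 to 86.6 FPKM in LLC with BMSCs. Neither the sum of the early genes nor the sum of these 8 overlapped between the groups, and both sums stood higher in LLC with BMSCs. Msmo1 and Cyp51 were left out by their own values, so the direction of the sum of the 8 is partly set by that choice. Singly, Pmvk, Sqle, Nsdhl and Ebp did overlap between the groups, and Lss was called lower.

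**Figure D3:**
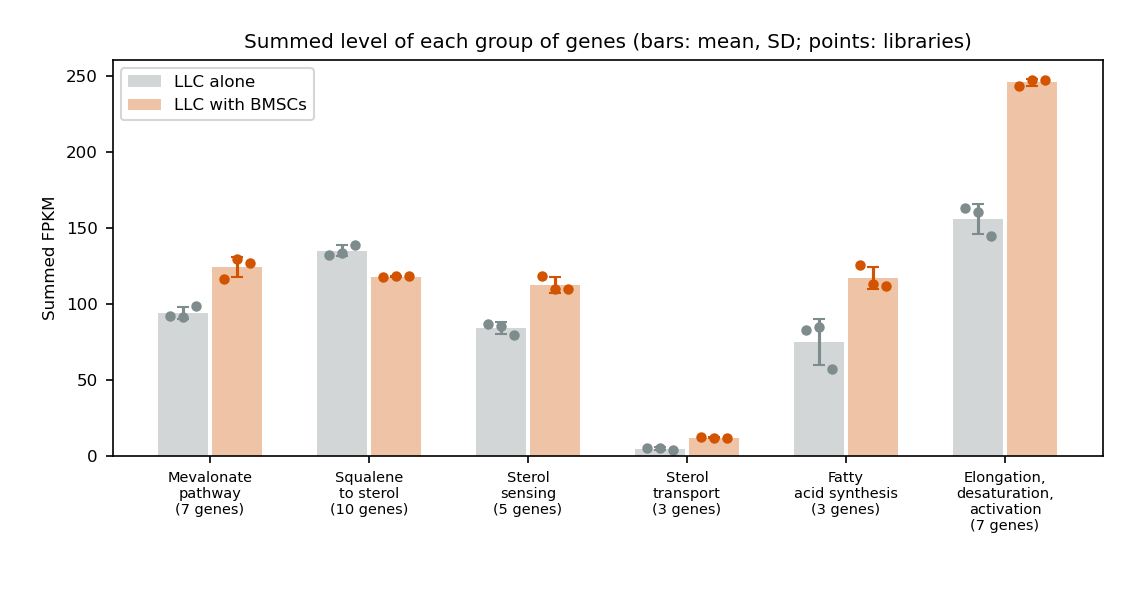
Summed FPKM of the genes of each role, with the mean and SD over 3 libraries as a bar and the libraries as points. The sum for squalene to sterol was the one that stood lower in LLC with BMSCs, through Msmo1 and Cyp51. The elongation, desaturation and activation genes summed to 145 to 163 FPKM and 243 to 247 FPKM. Scd2 alone averaged 51.1 FPKM and 122 FPKM of these, and so made up most of that rise.

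Genes that sense sterol were 4 higher and 1 lower of 5, with a median log2 fold change of 0.42. Srebf2 (NCBI gene 20788), the factor that mainly drives sterol genes, measured 20.66, 19.91 and 17.00 FPKM in LLC alone and 34.30, 31.59 and 32.11 FPKM in LLC with BMSCs. This gave a log2 fold change of 0.75 (SE 0.083, adjusted p = 1.67e-04 by edgeR). Srebf1 (NCBI gene 20787), which mainly drives fatty acid genes, had 10.72, 10.74 and 9.90 FPKM against 19.78, 16.44 and 16.26 FPKM. edgeR gave a log2 fold change of 0.72 (SE 0.091, adjusted p = 3.03e-04). With length and GC removed, Srebf1 and Srebf2 were each at 0.59. The ratio of Srebf2 to Srebf1 overlapped between the groups, at 1.83 ± 0.107 in LLC alone and 1.88 ± 0.126 in LLC with BMSCs (SD, n = 3 each). Of the 2 Srebf1 transcripts listed, one carried 96.6% ± 2.98 of the Srebf1 level in LLC alone and 94.8% ± 1.64 in LLC with BMSCs (SD, n = 3 each). Cleavage of these factors was not measured.

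The 2 Insig genes moved apart. Insig1, itself a target of the Srebf factors, had 12.15, 11.68 and 12.03 FPKM in LLC alone and 15.74, 16.39 and 16.58 FPKM in LLC with BMSCs (log2 fold change 0.42, SE 0.052, adjusted p = 2.88e-04 by edgeR). Insig2, which can also retain Scap, had 16.38, 16.99 and 17.36 FPKM against 14.08, 15.76 and 15.59 FPKM. The fitted log2 fold change was -0.18 (SE 0.062, edgeR adjusted p = 0.0388). The lower call for Insig2 was lost in 13 of 18 alternatives, including every fit without a library other than LLC alone replicate 3, where the adjusted p reached 0.1097, whereas that of Insig1 held in all 18. The order of the 2 genes was reversed, with a ratio of Insig1 to Insig2 of 0.707 ± 0.0299 in LLC alone and 1.07 ± 0.0400 in LLC with BMSCs (SD, n = 3 each). Scap, the escort of the Srebf factors, had 26.60, 26.44 and 23.07 FPKM against 34.68, 29.42 and 29.09 FPKM. The log2 fold change was 0.27 (SE 0.093, adjusted p = 0.0342 by edgeR). It was not called without LLC alone replicate 1 or 2 or without LLC with BMSCs replicate 1, where the adjusted p reached 0.0979, and its log2 fold change was 0.16 with length and GC removed.

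All 3 transport genes were higher in LLC with BMSCs, but Abca1 passed the filter on low counts only through that group. The tally is therefore partly set by the filter. Leaving Abca1 aside, Abcg1 had the largest change of the 35 genes. Abcg1 (NCBI gene 11307), an exporter of sterol to lipoproteins, measured 1.71, 1.71 and 1.49 FPKM in LLC alone and 6.04, 5.71 and 5.29 FPKM in LLC with BMSCs. Its log2 fold change of 1.78 (SE 0.083, edgeR adjusted p = 2.33e-06) lay between 1.55 and 1.83 in the count-based alternatives. Abca1 (NCBI gene 11303), which loads sterol on apolipoprotein A1, was close to absent in LLC alone with 0, 3 and 3 counts, against 73, 63 and 64 counts in LLC with BMSCs. Scaled to library size, its summed 200 counts against 6 gave a ratio of 31.2. The exact 95% interval of 14.1 to 86.1 covers counting error only. Its level in LLC with BMSCs was only 0.14 to 0.16 FPKM, and because of the filter no p-value is given for it. Stard4, a soluble carrier of cholesterol between membranes, had 3.66, 3.76 and 2.35 FPKM against 6.08, 6.19 and 6.48 FPKM. This gave a log2 fold change of 0.92 (SE 0.16, edgeR adjusted p = 1.58e-03). In LLC alone the lowest Stard4 value was that of replicate 3, and without it the log2 fold change was 0.74.

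Macrophages are known for high Abca1 and Abcg1, and macrophage markers were measured beside them. The 10 markers summed to 24.1 to 29.0 CPM in LLC alone and 30.5 to 33.2 CPM in LLC with BMSCs, with 5 of 7 tested called higher and Cd68 lower. Among the 5, Adgre1, Ptprc and Mrc1 had under 10 counts in every LLC alone library and passed the filter only through LLC with BMSCs, so the tally is partly set by it. Cd14, the most abundant of the 10, had 480 to 789 counts in LLC alone and 667 to 781 in LLC with BMSCs, and was not called. In LLC alone Cd68 came next, at 215 to 337 counts. The sum of the 10 thus says little of the less abundant markers. Of the defining ones, Adgre1 (F4/80) was listed at 0 in all 3 LLC alone libraries and at 0.42 to 0.56 FPKM in LLC with BMSCs, Ptprc (CD45) was at 0.01 to 0.05 and 0.41 to 0.49 FPKM, and the C1q genes did not exceed 0.07 FPKM. The part of macrophage RNA in the levels of Abca1 and Abcg1 was not tested, and fewer cells of a type and less RNA per cell cannot be told apart in these bulk libraries. Of the 9 neutrophil markers in the files, 7 were tested and called higher, but S100a8, S100a9, Csf3r, Ngp and Camp passed in the same way and nothing is read from that count. The sum of the 9 was 0.886 to 1.22 CPM in LLC alone and 37.1 to 40.5 CPM in LLC with BMSCs. The 12 BMSC markers summed to 377 to 440 CPM in LLC alone and 851 to 898 CPM in LLC with BMSCs, with all 10 tested called higher (Col1a1 having passed only through LLC with BMSCs), Col3a1 the most abundant (36.8 to 43.6 and 99.0 to 102 FPKM) and Thy1 at no more than 0.03 FPKM. LLC alone received no BMSCs, yet Col3a1 and Eng (26.6 to 29.8 FPKM) were abundant there, so this sum does not measure BMSC RNA alone. The share of neutrophil or BMSC RNA in the 25 higher genes was not tested. Adipocyte markers, of interest because fat cells make much fatty acid, summed to 27.1 to 30.1 CPM and 23.1 to 25.5 CPM, with Lpl lower among 2 tested, and the defining genes Adipoq and Cidec did not exceed 0.03 FPKM. Of the carcinoma markers, Krt8 stood at 90.3 to 113 FPKM and was called higher, a call that held in 10 of 18 alternatives. Krt18 was at 0.03 to 0.13 FPKM in LLC alone and 0.63 to 0.69 FPKM in LLC with BMSCs, and passed the filter only through the latter. Epcam and Cdh1 did not exceed 0.04 FPKM in any library, so that these defining epithelial genes were all but absent from the cells labelled as carcinoma. The 6 keratinocyte and sebocyte markers found summed to no more than 0.949 CPM, with none called of 1 tested. The 8 endothelial markers summed to no more than 3.93 CPM, with Esam lower among 3 tested.

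All 3 genes that make palmitate from citrate were called higher. Their median log2 fold change was 0.58, with 0.39 without LLC alone replicate 3 and 0.23 with length and GC removed. Acly (NCBI gene 104112), the ATP citrate lyase, measured 27.53, 29.07 and 22.99 FPKM in LLC alone and 45.19, 45.29 and 44.82 FPKM in LLC with BMSCs. edgeR gave a log2 fold change of 0.75 (SE 0.087, adjusted p = 2.07e-04). The files list 2 transcripts of Acly. NM_001199296 carried 41.6% ± 3.19 of the Acly level in LLC alone and 55.1% ± 3.63 in LLC with BMSCs (SD, n = 3 each), being 12.24, 11.10 and 9.72 FPKM and then 25.60, 26.16 and 22.85 FPKM. The other, NM_134037, had 15.29, 17.97 and 13.27 FPKM and then 19.60, 19.13 and 21.97 FPKM. Neither transcript overlapped between the groups, and the division of shared reads between them is an estimate of the authors' program.

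Fasn, the fatty acid synthase, had 40.24, 40.39 and 25.07 FPKM in LLC alone and 59.82, 50.10 and 49.87 FPKM in LLC with BMSCs. The fitted log2 fold change was 0.58 (SE 0.18, edgeR adjusted p = 0.0227). Acaca, the acetyl-CoA carboxylase that commits carbon to fatty acids, had 14.88, 15.24 and 9.23 FPKM against 20.26, 17.93 and 17.31 FPKM (log2 fold change 0.48, SE 0.18, adjusted p = 0.0482 by edgeR). For both genes the groups did not overlap, but LLC alone replicate 3 was far below replicates 1 and 2. With length and GC removed the log2 fold change was 0.23 for Fasn (edgeR adjusted p = 2.83e-03) and 0.17 for Acaca (edgeR adjusted p = 0.0496), and without LLC alone replicate 3 it was 0.39 and 0.28. Fasn was not called without LLC with BMSCs replicate 1 (adjusted p = 0.0888 by edgeR), nor was Acaca without any one of the LLC with BMSCs libraries, where the adjusted p reached 0.152. Acly stood at 0.63 with both removed and 0.66 without LLC alone replicate 3.

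Among the 7 genes of elongation, desaturation and activation, 5 were higher and 2 lower, with a median log2 fold change of 0.36. That median was 0.30 without LLC alone replicate 3 and 0.19 with length and GC removed. Scd2 (NCBI gene 20250), a stearoyl-CoA desaturase that makes monounsaturated fatty acids, measured 54.66, 52.91 and 45.68 FPKM in LLC alone and 123.19, 120.08 and 122.69 FPKM in LLC with BMSCs. It had the highest level of all 35 genes in both groups and a log2 fold change of 1.24 (SE 0.076, edgeR adjusted p = 8.14e-06), which was 1.06 with length and GC removed. Scd1, its paralogue, had 18.22, 18.61 and 16.16 FPKM against 22.90, 22.78 and 23.20 FPKM, a smaller log2 fold change of 0.36 (SE 0.066, adjusted p = 2.14e-03 by edgeR) that was 0.19 with both removed. The ratio of Scd2 to Scd1 was 3.00, 2.84 and 2.83 in LLC alone and 5.38, 5.27 and 5.29 in LLC with BMSCs, so that the 2 desaturases changed unequally in these libraries. Counts of the Scd genes were not whole numbers in 6 libraries for Scd1 and 5 for Scd2, and reads that match both were divided between them by the authors' program. Acat2, Fdft1, Acaca and Acsl3 also had counts that were not whole in all 6 libraries, Srebf1 in 5 and Fdps in 3.

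The 2 Fads desaturases, which make polyunsaturated fatty acids, also differed. Fads2, the delta-6 desaturase, had 5.77, 5.93 and 4.42 FPKM in LLC alone and 9.49, 8.99 and 8.61 FPKM in LLC with BMSCs (log2 fold change 0.73, SE 0.12, adjusted p = 1.07e-03 by edgeR). With length and GC removed, Fads2 was at 0.92. Fads1, the delta-5 desaturase, had 14.24, 14.48 and 13.61 FPKM against 13.29, 11.00 and 11.63 FPKM. The log2 fold change was -0.26 (SE 0.081, edgeR adjusted p = 0.0243). Its call was lost in 5 of 18 alternatives, among them the fits without LLC alone replicate 1 or 2 or without LLC with BMSCs replicate 2 or 3, where the adjusted p reached 0.0916. The ratio of Fads2 to Fads1 was 0.380 ± 0.0477 and 0.757 ± 0.0536 (SD, n = 3 each), in LLC alone and LLC with BMSCs respectively.

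Elovl6, which elongates palmitate to stearate, had 13.27, 13.41 and 11.23 FPKM in LLC alone and 16.97, 16.89 and 16.43 FPKM in LLC with BMSCs. This gave a log2 fold change of 0.39 (SE 0.077, edgeR adjusted p = 3.03e-03) that was 0.17 with length and GC removed. Elovl5, the elongase of polyunsaturated fatty acids, had 41.46, 39.50 and 38.95 FPKM against 44.91, 54.05 and 51.54 FPKM (log2 fold change 0.31, SE 0.077, adjusted p = 9.04e-03 by edgeR). Acsl3, an acyl-CoA synthetase that activates fatty acids, was lower, with 15.15, 15.53 and 14.41 FPKM against 12.49, 13.34 and 12.97 FPKM and a log2 fold change of -0.23 (SE 0.057, edgeR adjusted p = 8.06e-03). For these 3 genes the groups did not overlap.

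**Figure D4:**
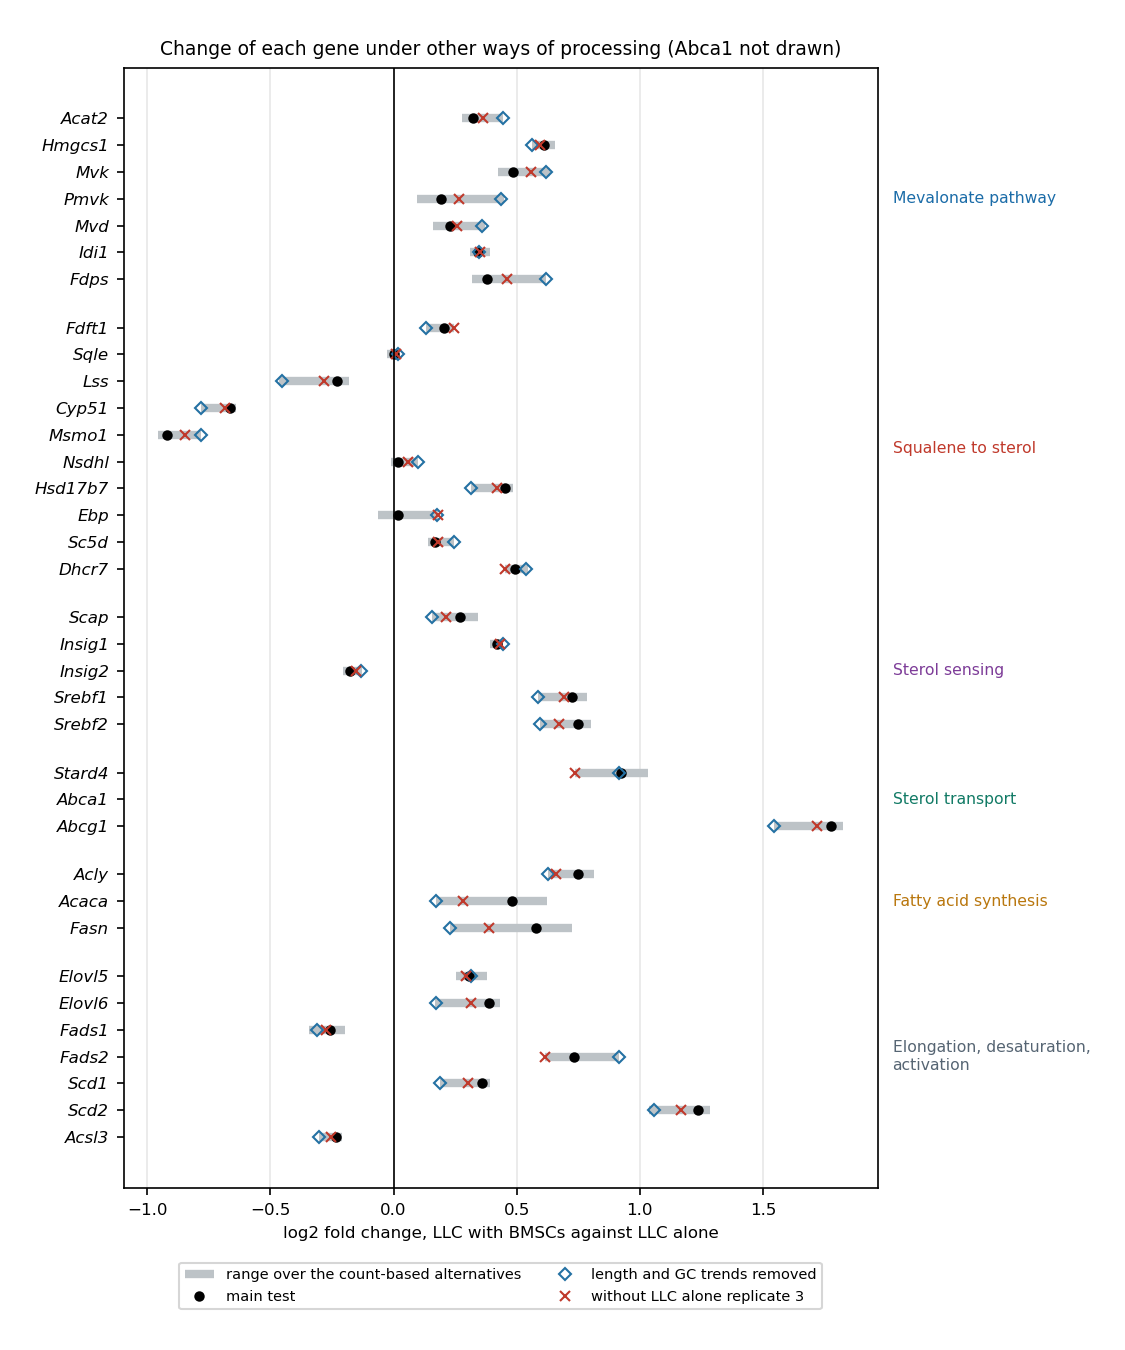
log2 fold change of each gene in the main edgeR test (black), with length and GC removed (blue diamonds) and without LLC alone replicate 3 (red crosses), over the range of the count-based alternatives (grey). Hmgcs1, Cyp51, Msmo1, Insig1, Srebf1, Srebf2, Abcg1 and Scd2 stayed far from 0, Acaca and Fasn moved toward 0, to 0.17 and 0.23, and Sqle, Nsdhl and Ebp straddled 0.

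Other genes of the same pathways were called about as often in each direction. Of 52 listed, 45 were tested, 16 (35.6%) were higher, 15 (33.3%) lower and 14 not called, shares near the 31.5% and 31.3% of all tested genes. Their median log2 fold change was 0.07, and 0.03 without LLC alone replicate 3. Ggps1, which makes geranylgeranyl diphosphate, was higher, at a log2 fold change of 0.57 (edgeR adjusted p = 4.66e-04).

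The LXR genes went in opposite directions. Nr1h2 was higher by a log2 fold change of 0.33 (edgeR adjusted p = 4.87e-03) at 15.21 to 17.25 and 18.25 to 21.18 FPKM, and Nr1h3 was lower at 1.10 to 1.24 and 0.70 to 0.94 FPKM (log2 fold change -0.58, adjusted p = 8.57e-03 by edgeR). Of the fatty acid genes outside the set, Me1, the malic enzyme that supplies NADPH, fell from 87.06, 89.12 and 86.84 FPKM to 39.45, 41.32 and 40.16 FPKM (log2 fold change -1.14, SE 0.052, edgeR adjusted p = 2.09e-06). Elovl3, another elongase, had 2.93, 2.66 and 2.82 FPKM against 0.18, 0.21 and 0.24 FPKM (log2 fold change -3.73, SE 0.14, adjusted p = 9.13e-07 by edgeR), and Elovl7 fell by 1.51 on the log2 scale (edgeR adjusted p = 3.27e-05). These elongases moved opposite to Elovl5 and Elovl6.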

How the data were processed

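Messenger RNA of LLC cells sorted from tumours was sequenced in 3 libraries per group, which were assigned by their titles. For genes and transcripts the authors deposited estimated counts, which need not be whole, and FPKM values. Per the labels, the submitters' processing notes name HISAT, StringTie, Cufflinks and GATK and the build mm8, with no roles or versions, and the counting program and its use of strand are not given in the sources used here. Such counts divide reads among near-identical genes, and FPKM also depends on the few most abundant genes.

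Estimated counts were rounded. edgeR 4.0.16 in R 4.3.3 was used over the 6 libraries with TMM scaling, its default low-count filter and the quasi-likelihood test, with Benjamini-Hochberg adjustment over all 13353 genes tested and a threshold of 0.05. SE is the standard error of the log2 fold change. The scripts were tested on simulated data. An exact permutation test of 3 against 3 gives no two-sided p under 0.1, so none was run. The paper's methods name no test for these counts.

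The members and the lists of other pathway genes and cell markers were chosen with earlier results of these data known. All members were named; of the other pathway genes, Nr1h2, Nr1h3 and others fixed by name and, among called genes whose groups did not overlap and which reached 1 FPKM on average in a group, the 3 highest and 3 lowest log2 fold changes. Some genes that this rule names are not reported here. Of the marker lists some abundant genes and the defining genes were named, the latter after their values were seen. The most abundant gene is not named for every list. The alternatives were DESeq2 1.42.0, other scalings and filters, limma 3.58.1 on log2(FPKM + 1) and log2(FPKM + 0.1), the replicate block, leaving out each library, summing the closest libraries of each group, and removal of each library's trend over transcript length. Removal of length and GC trends together was added after seeing the data. GC content came from GENCODE transcripts of GRCm38, for 93.8% of the tested genes. Coordinates are given only for RefSeq promoters of GRCm38.p6.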

Additional observations from a re-analysis of the deposited data

How the results depend on the processing

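Of the 31 called genes, 18 kept their direction and call in all alternatives that gave a value (16 higher, among them Abca1 with 15 alternatives and the others with 18, and 2 lower), and none reversed. Leaving out each library in turn gave 20 to 27 higher and 3 to 6 lower genes. The lower genes numbered 3 without LLC alone replicate 1 or 2 or without LLC with BMSCs replicate 2 or 3. With the closest libraries of each group summed (LLC alone replicates 1 and 2, LLC with BMSCs replicates 2 and 3), 17 were higher and 2 lower. With an adjusted p under 0.001, 9 were higher and 2 lower, and with a log2 fold change of at least 1 in addition to the adjusted p under 0.05, 3 were higher and 0 lower. The other pathway genes then numbered 8 higher and 7 lower, and 5 higher and 5 lower. Of all tested genes, 8.65% were higher with a log2 fold change of at least 1. For the adjusted p under 0.001 and for the alternatives, the replicate block included, shares of all tested genes are not given here. These counts thus show only how far the calls of these genes held.

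Sqle, Nsdhl and Ebp, which were not called, changed sign. Their log2 fold changes were -0.0269, -0.0119 and -0.0132 with upper-quartile scaling, and with the closest libraries summed Sqle was at -0.0123 and Ebp at -0.0643. With each library left out in turn they ranged from -0.0107 to 0.0249 for Sqle, from -0.0078 to 0.0587 for Nsdhl and from -0.0637 to 0.1787 for Ebp. The signs changed only with upper-quartile scaling, with a library left out or with the closest libraries summed, and the cause was not tested.

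The replicate numbers did not pair the libraries. Same-numbered libraries deviated from their group means with correlations of 0.076, -0.11 and 0.057, and the replicate block gave 22 higher and 5 lower genes, ending the calls of Mvd, Fdft1, Sc5d and Insig2.

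Depth limits the genes with few counts, Abca1 among them. The cause of the length trend was not tested.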
